A study of Mus musculus with 8 samples.

Results

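Oxidative phosphorylation is carried out in the inner mitochondrial membrane by 5 protein complexes. The genes described here are the nuclear genes of those complexes, taken from the table of liver ribosome footprints by their symbols: those that start with Nduf (complex I), with Sdh followed by a, b, c or d (complex II), with Uqcr (complex III) or with Atp5 (complex V), and those that read Cox followed by a digit (complex IV). The symbols leave out Cyc1, the cytochrome c1 of complex III, whose values are given beside that complex. This rule found 59 of the 7500 genes of the table. Of these, 49 encode subunits, 8 encode assembly factors that the rule takes in by their names, and 2 encode proteins of other roles. Of 108 names of this kind listed for the mouse, the other 49 had no line in it and are not analysed here.

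The livers came from male FVB/N mice, a wild-type inbred strain, that received a selenium-deficient diet from weaning. In the 0 Se group (2 mice, 4 libraries) the diet held 0 ppm added selenium, and in the 0.1 Se group (2 mice, 4 libraries) it held 0.1 ppm selenium as sodium selenite. Both groups were kept on their diet for 6 weeks, and each mouse gave 2 libraries. In ribosome profiling, mRNA is digested with a nuclease and the fragments covered by ribosomes, the footprints, are sequenced. Footprints on a coding sequence thus measure the ribosomes on all mRNA copies of a gene together.

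All values below are the authors' averages over the libraries of both diets. A level is in CPM, the footprints of a gene scaled to a common library size, and a density is that level per kilobase of counted coding sequence, so that genes of different length can be compared. The table used here holds no value for a single library, so no SD, n or test accompanies a value, the depth is unknown, and no difference between 0 Se and 0.1 Se is given. For the same reason it cannot be said which neighbours in an order of genes differ beyond the spread between mice. The table sums to 857014 CPM, or 85.7% of the total to which CPM is scaled. Per the study's methods its genes had passed a filter on level, so genes of low level are missing from it. The lack of a line does not show that a gene was low, and why a given gene has none was not tested. Of 9 hepatocyte markers 8 had a line, with log2 CPM of 7.93 to 16.48 and albumin (Alb) the highest, and 0 of 5 skeletal muscle markers had one. Whole liver also holds other cells: 5 of 7 marker names of Kupffer cells and leukocytes had a line, at 3.56 to 8.09 log2 CPM. Among those names, Emr1 and Adgre1 stand for the same gene. For endothelial and stellate cells 7 of 7 markers had a line, at 1.78 to 7.27 log2 CPM. The share of the footprints that came from each cell type was not tested, and in a bulk sample fewer cells of a type and less RNA per cell cannot be told apart.

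Complex I passes electrons from NADH to ubiquinone, complex II passes them from succinate, complex III hands them from ubiquinol to cytochrome c, and complex IV delivers them to oxygen. Complexes I, III and IV move protons across the membrane as they do so, and complex V, the ATP synthase, lets the protons back and makes ATP. Complexes I, III, IV and V also contain subunits that are encoded in mitochondrial DNA and are made on mitochondrial ribosomes. The remaining subunits, which are those described here, are made on cytosolic ribosomes and imported.

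The 49 subunit genes had high footprint densities. A density was not divided by the amount of mRNA, so the number of ribosomes per mRNA was not measured. Their median density was 296 CPM per kilobase against 11.3 for all 7500 genes, and all 49 lay above the latter. The range ran from 35.8 for Cox7c to 1795 for Cox6b1, a 50.2-fold span, and 44 of the 49 were in the top 10% of the table, above 135 CPM per kilobase. The assembly factors, proteins that help build a complex but do not stay in it, had a median of 25.1 CPM per kilobase (6.34 to 84.5), 11.8-fold below the subunits, and 0 of 8 were in the top 10%. The highest assembly factor, Cox14, lay above the subunits Ndufv3 and Cox7c and below the other subunits. All 59 genes summed to 0.997% of the footprints in the table. The plot of density by gene shows them complex by complex.

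**Figure D1:**
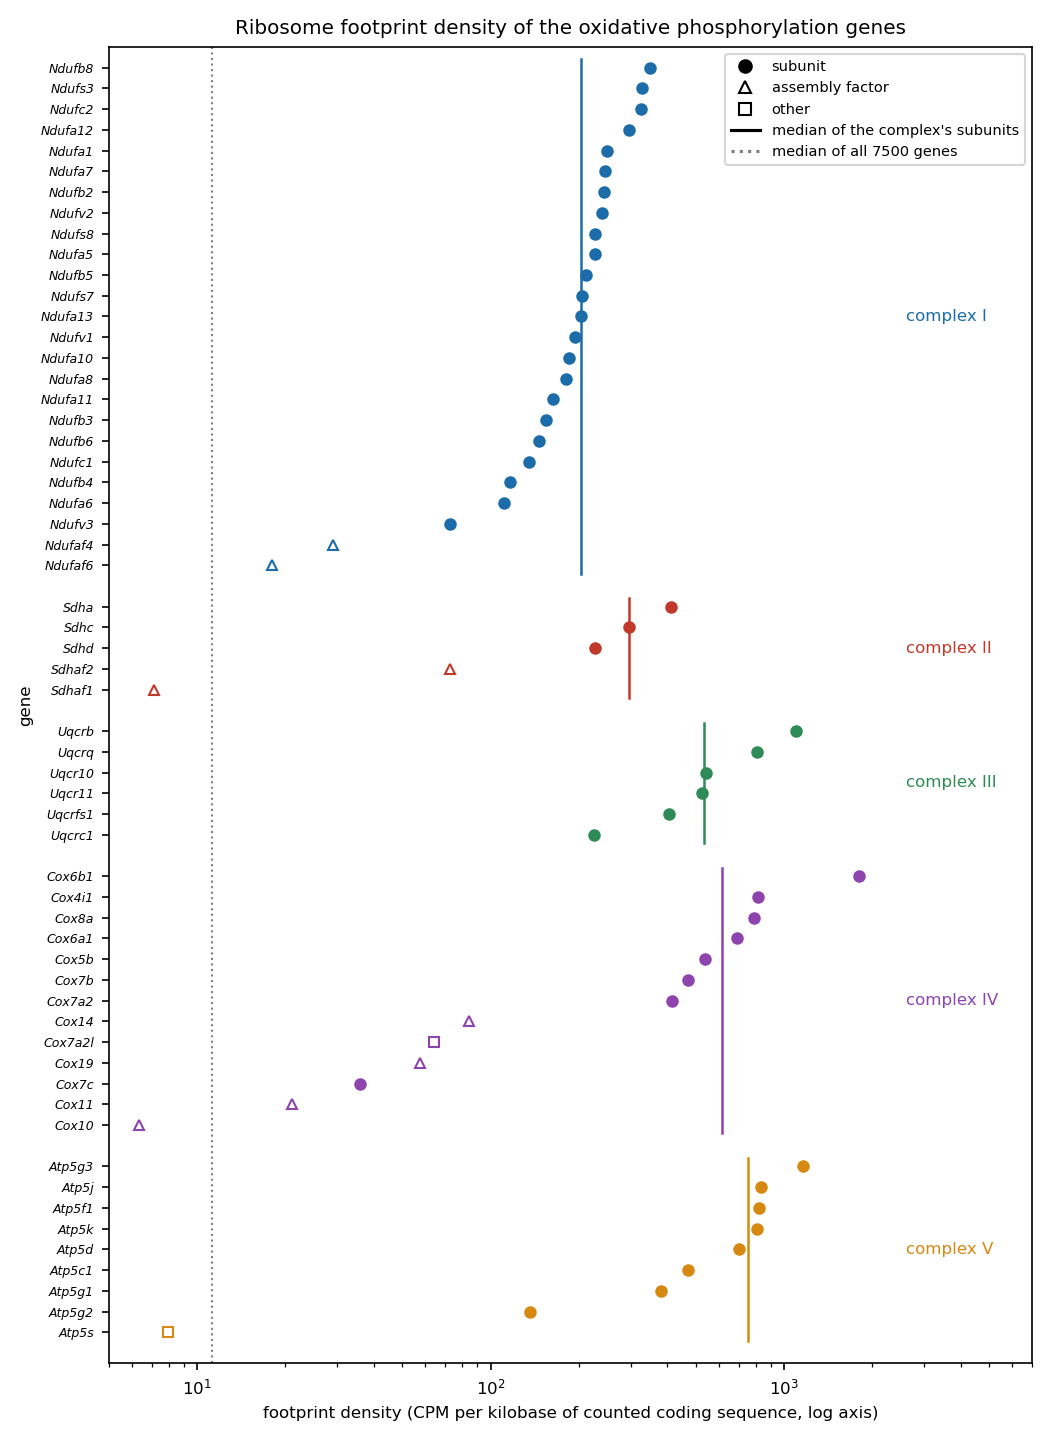
Footprint density (CPM per kilobase of counted coding sequence, log axis) of the oxidative phosphorylation genes, ordered within each complex. Filled circles are subunits, open triangles assembly factors and open squares other genes; vertical lines mark the median of each complex's subunits and the dotted line the median of all 7500 genes, 11.3. All filled circles lie to the right of the dotted line, and Cox7c stands apart from the other complex IV subunits.

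The complexes differed in the density of their subunits. The median was 204 CPM per kilobase for complex I (24 genes), 297 for complex II (3 genes), 534 for complex III (6 genes), 614 for complex IV (8 genes) and 757 for complex V (8 genes). The ranges of complexes III, IV and V overlapped over most of their length. The highest complex I subunit, at 349 CPM per kilobase, lay below the medians of complexes III, IV and V. Complex I spanned 4.80-fold, complex V 8.47-fold and complex IV 50.2-fold. Complex III spanned 4.88-fold as taken by symbol and 7.11-fold with Cyc1, when its median was 525 CPM per kilobase (7 genes). These medians rest on the subunits with a line, which were 24 of 38 names in complex I, 3 of 4 in complex II, 6 of 9 in complex III, 8 of 17 in complex IV and 8 of 15 in complex V.

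Summed over its genes, each complex took a share of the footprints that also depends on how many genes it has. Complex I held 0.303% of the footprints of the table, complex V 0.259%, complex IV 0.170%, complex III 0.141% and complex II 0.123%. These sums cover only genes with a line, so complex V lacks 7 of 15 subunit names, Atp5a1 and Atp5b among them, and complex I lacks 14 of 38. The order of the sums is thus that of the lines in the table and not of the whole complexes. Within complex II, Sdha alone accounted for 794 of 1057 CPM.

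Other mitochondrial genes were read beside the complexes. The 9 of 14 citric acid cycle enzymes with a line had a median density of 126 CPM per kilobase, from 32.0 for Idh3a, a subunit of isocitrate dehydrogenase, to 212 for Suclg1, a subunit of succinyl-CoA ligase. The 7 genes listed as electron carriers and dehydrogenases beside the chain, among which Cyc1 of complex III was placed, had a median of 197, from 6.66 for Dhodh of pyrimidine synthesis to 630 for Etfb, which carries electrons from fatty acid oxidation. The 54 genes of the mitochondrial ribosome had a median of 51.0 and those of the cytosolic ribosome (58 genes) one of 185. Many genes of the cytosolic ribosome have near-identical copies in the genome. The part of such copies in the densities of these genes was not tested. The plot of density by gene set places these beside the complexes. As genes are not replicates, these medians are a description and were not tested against each other.

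**Figure D2:**
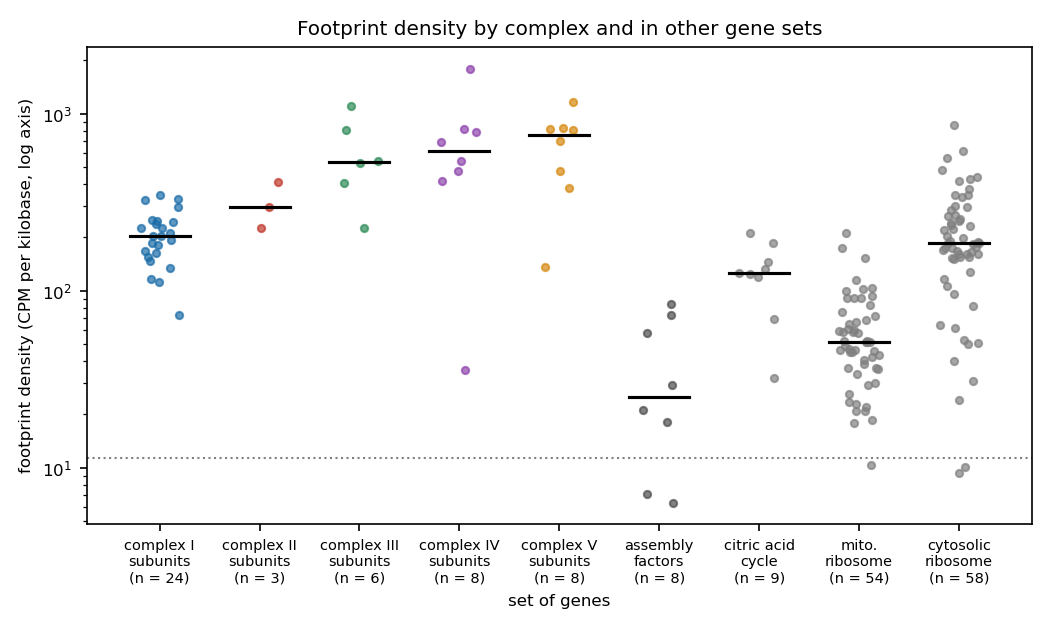
Footprint density (CPM per kilobase, log axis) of the subunits of each complex, their assembly factors, the citric acid cycle and the ribosomal proteins of mitochondria and cytosol. Each point is a gene, each bar the median of its set and the dotted line the median of all 7500 genes. The medians of complexes III to V, 534 to 757, lie above those of the other sets shown.

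The subunits are short, and density is a level divided by length. Their median counted length was 366 bases against 1344 for all genes. Across all 7500 genes log2 density and log2 length had a Pearson r of -0.44 and a Spearman rho of -0.45, and across the 49 subunits these were -0.21 and -0.24. The levels themselves, as log2 CPM, had an r of 0.01 with log2 length across all genes and of 0.57 across the subunits. What lies behind the fall of density with length over all genes was not tested. Genes share libraries and are not independent replicates. Within bins of length, the subunits still lay above the median of all genes: 3 of 4 up to 150 bases, 14 of 14 over 150 and up to 300, 19 of 19 over 300 and up to 600, 7 of 7 over 600 and up to 1200, and 5 of 5 above 1200. In the bin of 300 to 600 bases the subunits had a median of 227 CPM per kilobase and all 893 genes one of 31.0. The exception, in the shortest bin, was Cox7c.

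**Figure D3:**
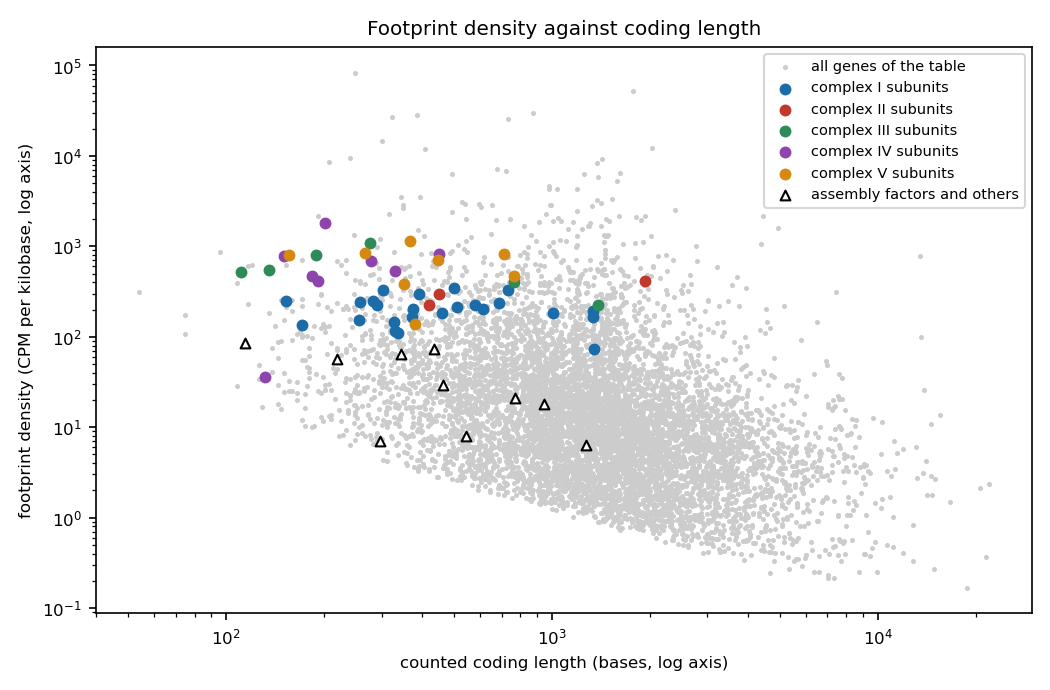
Footprint density (CPM per kilobase, log axis) against counted coding length (bases, log axis) for all 7500 genes in grey, the subunits in the colour of their complex, and the assembly factors and other members as open triangles. The subunits lie in the upper part of the cloud at every length except for Cox7c, at 132 bases and 35.8 CPM per kilobase.

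In complex I, the core subunits with a line lay within the range of the accessory ones. Ndufv1, which binds NADH and flavin, had a density of 194 CPM per kilobase and its partner Ndufv2 had 239. In the module that reduces ubiquinone, Ndufs3 had 329, Ndufs8 227 and Ndufs7 204. The 13 accessory subunits of the membrane arm had a median of 185 (116 to 349). The 3 highest subunits of the complex were Ndufb8 at 349, Ndufs3 at 329 and Ndufc2 at 327 CPM per kilobase. The 3 lowest were Ndufb4 at 116, Ndufa6 at 111 and Ndufv3 at 72.8. Ndufs1, the largest iron-sulfur subunit, had no line.

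Ndufv3 illustrates how the counted isoform enters a density. Per the study's methods each gene was counted on its longest RefSeq isoform. In the GENCODE annotation the listed length fitted the longest coding sequence for 58 of the 59 genes, and for Atp5c1 it fitted one of 825 bases where the longest has 897. For Ndufv3 the longest has 1407 bases, of which 1347 were counted. The same annotation also gives Ndufv3 coding sequences of 315 and 261 bases. Its level was 98.0 CPM, and the next lower level in the complex was that of Ndufa8 (83.3). Which isoform the footprints came from was not tested.

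The assembly factors of complex I that had a line were Ndufaf4, at 29.1 CPM per kilobase, and Ndufaf6, at 18.0. Both lay below the lowest subunit of the complex, Ndufv3.

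Complex II also belongs to the citric acid cycle, where it oxidises succinate. Its catalytic flavoprotein Sdha had a density of 410 CPM per kilobase, and the membrane anchors Sdhc and Sdhd had 297 and 227. Sdha was 1.38 times as dense as Sdhc and 1.81 times as dense as Sdhd. In level the differences were larger, 794 CPM for Sdha against 134 and 95.3, because its counted sequence is longer (1935 bases against 450 and 420). Sdhaf2, which attaches flavin to Sdha, had a density of 72.9, and Sdhaf1, which helps insert iron-sulfur clusters, had 7.10, with a level of 2.11 CPM. The iron-sulfur subunit Sdhb had no line.

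In complex III the small accessory subunits were the densest. Uqcrb, which lies near the ubiquinone site, had 1101 CPM per kilobase, Uqcrq 809, Uqcr10 542 and Uqcr11 525. The Rieske iron-sulfur protein Uqcrfs1 followed with 407, and the large core protein Uqcrc1 was the lowest of those taken by symbol with 226. Cyc1, the heme-carrying cytochrome c1 of the complex, had 155. In level, Uqcrb, Uqcrfs1 and Uqcrc1 were close, at 304, 311 and 312 CPM, although their counted lengths were 276, 765 and 1383 bases. The other core protein, Uqcrc2, had no line.

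In complex IV the nuclear subunits surround a core made in mitochondria. Cox6b1, which faces the space between the membranes, was the densest of all 59 genes at 1795 CPM per kilobase. It was followed by Cox4i1 at 815, Cox8a at 787, Cox6a1 at 689, Cox5b at 539, Cox7b at 473 and Cox7a2 at 417. Cox4i1 and Cox6b1 had nearly equal levels, 367 and 361 CPM, on counted lengths of 450 and 201 bases.

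Several of these subunits have a second gene that is used mainly in muscle, lung or testis. For each such pair the ubiquitous or liver form had a line and the other form did not: Cox4i1 and not Cox4i2, Cox6a1 and not Cox6a2, Cox6b1 and not Cox6b2, Cox7a2 and not Cox7a1, and Cox8a and neither Cox8b nor Cox8c. A gene without a line was not analysed here, so no level can be given for the other forms. The subunits Cox5a and Cox6c, which are not such second forms, had no line either. The lack of a line therefore does not mark a form as unused in liver. Ndufa4, a complex IV subunit in spite of its symbol, also had no line. Cox7a2l, a relative of Cox7a2 that joins complexes III and IV, had a density of 64.1 CPM per kilobase, and Cox7a2 was 6.50 times as dense.

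Cox7c was far below the other subunits of its complex. Its level was 4.72 CPM and its density 35.8 CPM per kilobase, while the next lowest subunit, Cox7a2, had 417. Reads were counted only where they aligned to a unique place, so a search was made for stretches that each gene shares with other coding sequences of the reference. Of the 30-base windows of Cox7c, 69.3% occurred exactly, and 100% with up to 2 mismatches, in Gm3386, an intact coding sequence that RefSeq lists as a pseudogene. The Cox7c gene spans chr13:86184421-86186509 on the minus strand and Gm3386 spans chr14:39193652-39194039 on the plus strand. Their coding sequences, which are shorter than these spans, are printed 5′ to 3′ from the mm9 reference to show how alike they are, with capitals at the bases that differ.

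Cox7c: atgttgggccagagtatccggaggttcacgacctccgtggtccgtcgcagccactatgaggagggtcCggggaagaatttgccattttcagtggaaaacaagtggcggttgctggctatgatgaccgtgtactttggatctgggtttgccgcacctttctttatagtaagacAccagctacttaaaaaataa
Gm3386: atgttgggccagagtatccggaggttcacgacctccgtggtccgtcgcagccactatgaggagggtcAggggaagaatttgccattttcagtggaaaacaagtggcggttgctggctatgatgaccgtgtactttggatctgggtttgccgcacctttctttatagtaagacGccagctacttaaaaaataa

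The sequences have 192 bases each and differ by C68A and A173G, counted from the first base of the start codon, with the base of Cox7c first. This comparison was chosen after the density of Cox7c was seen. Gm3386 has no line in the table, and whether it was among the sequences the authors aligned to is not given in the sources used here. Cox5b was in the same position, with 75.1% of its windows found exactly and 100% with up to 2 mismatches in Gm11273, also listed as a pseudogene, and its density was 539. The part of shared sequence in either density was not tested.

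The same search was made for all 59 genes. It covered annotated coding sequences only, and the share of other genes with such windows was not counted. Apart from Cox7c and Cox5b, windows found with up to 2 mismatches made up 45.9% of Atp5g2, 30.6% of Cox7a2l and 4.97% of Atp5g1, and 54 genes had none.

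**Figure D4:**
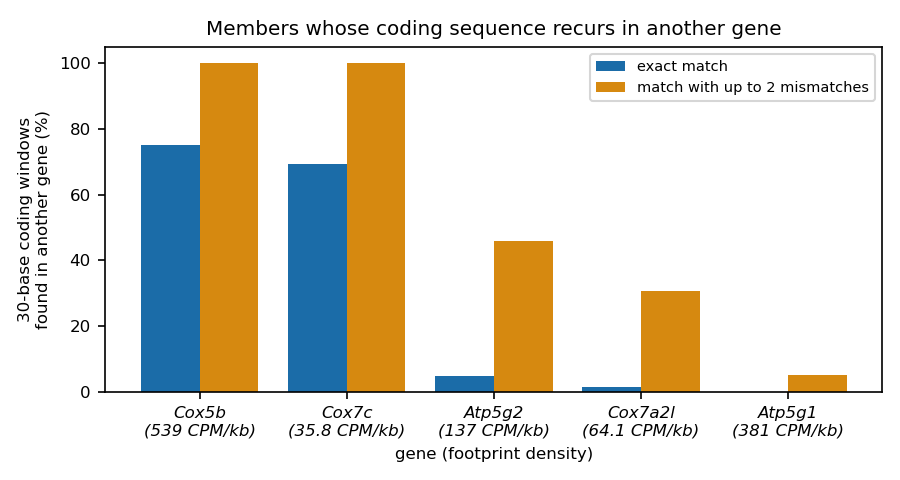
Percentage of the 30-base windows of a coding sequence that occur in another coding sequence of the mm9 annotation, exactly (blue) or with up to 2 mismatches (orange), for the 5 genes with any; the density of each gene stands under its name. Cox5b and Cox7c both reach 100% with mismatches allowed, at densities of 539 and 35.8 CPM per kilobase.

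The assembly factors of complex IV (4 genes) spanned 13.3-fold, those of complex I (2 genes) 1.62-fold and those of complex II (2 genes) 10.3-fold. Cox14, which acts early in the assembly of the mitochondrial core, had 84.5 CPM per kilobase and Cox19, which takes part in copper delivery, had 57.4. Cox11, which also delivers copper, had 21.0, and Cox10, which makes the heme A precursor, had 6.34, the lowest density of the 59 genes. Assembly factors that the symbols do not take in were similar in range: 12 of 23 had a line, with a median of 20.0, from 12.4 for Bcs1l of complex III to 106 for Coa3 of complex IV.

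In complex V the stalk and membrane subunits were close together. Atp5j and Atp5f1 of the peripheral stalk had densities of 835 and 822 CPM per kilobase, Atp5k of the membrane part 810, and Atp5d and Atp5c1 of the rotating central stalk 703 and 471. The catalytic head could not be described, since Atp5a1 and Atp5b had no line. Atp5s, named for the synthase but not a subunit of it, had 7.93. Among partners of the synthase, 5 of 6 had a line, from Slc25a4, the ADP/ATP carrier of heart and muscle, at 5.60 to Slc25a5, the more widely expressed carrier, at 751.

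The ring of c subunits, which turns as protons pass, is encoded by 3 genes whose proteins differ in the import sequence that is removed. Atp5g3 had a density of 1157 CPM per kilobase, Atp5g1 381 and Atp5g2 137. Atp5g3 was 3.04 times as dense as Atp5g1, which was 2.79 times as dense as Atp5g2. The last 237 bases of each coding sequence encode the same 78 residues and the stop codon, a stretch that takes in the whole c subunit of the ring. The whole genes span chr11:95930166-95936984 (Atp5g1), chr15:102493299-102501478 (Atp5g2) and chr2:73746504-73749383 (Atp5g3), all on the minus strand of mm9. The last 237 coding bases of each are printed 5′ to 3′ to show how reads of the genes can be told apart, with capitals where they are not all alike.

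Atp5g1: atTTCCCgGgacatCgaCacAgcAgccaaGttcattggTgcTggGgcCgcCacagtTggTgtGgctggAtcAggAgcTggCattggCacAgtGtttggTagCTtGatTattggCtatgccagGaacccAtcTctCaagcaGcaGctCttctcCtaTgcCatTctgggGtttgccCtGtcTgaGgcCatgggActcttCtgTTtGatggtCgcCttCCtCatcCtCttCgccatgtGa
Atp5g2: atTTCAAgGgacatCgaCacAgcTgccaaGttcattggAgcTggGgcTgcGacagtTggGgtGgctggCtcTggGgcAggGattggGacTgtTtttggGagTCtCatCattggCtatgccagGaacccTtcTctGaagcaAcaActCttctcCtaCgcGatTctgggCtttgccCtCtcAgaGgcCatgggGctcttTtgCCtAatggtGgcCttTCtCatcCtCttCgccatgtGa
Atp5g3: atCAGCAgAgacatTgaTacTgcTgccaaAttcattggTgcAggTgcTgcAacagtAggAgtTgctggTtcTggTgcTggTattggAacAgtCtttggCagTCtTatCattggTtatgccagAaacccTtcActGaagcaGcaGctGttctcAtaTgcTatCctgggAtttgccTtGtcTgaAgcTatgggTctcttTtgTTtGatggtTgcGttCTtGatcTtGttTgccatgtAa

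The bases were alike in all of the genes at 173 of the 237 positions. Identity was 84.8% between Atp5g1 and Atp5g2, 78.5% between Atp5g1 and Atp5g3 and 77.2% between Atp5g2 and Atp5g3. Atp5g3 had no 30-base window within 2 mismatches of another gene. Such windows made up 45.9% of Atp5g2, the least dense of these genes, and 4.97% of Atp5g1. The part of shared sequence in the densities of the c subunit genes, and so in their ratios and sum, was not tested.

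Because their product is the same, the densities of the c subunit genes were added, a sum chosen after the values were seen. It came to 1675 CPM per kilobase, of which Atp5g3 gave 69.1%, Atp5g1 22.8% and Atp5g2 8.16%. The 5 other subunits with a line, each present once in the complex, had a median of 810 (471 to 835), so the sum was 2.07 times that median. With 8 c subunits in the ring, the sum per copy was 209 CPM per kilobase, below each of those 5 subunits.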

How the data were processed

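Ribosome footprints of 8 liver libraries (4 mice, 2 diets) were used as the authors' single table of 7500 genes; 0 columns held values for a single sample. Per the study's methods, the authors removed adapters and ribosomal RNA reads, aligned reads with Bowtie to the longest RefSeq isoform of each gene (mm9), kept unique alignments, left out the first 15 and last 3 codons (54 bases) of each coding sequence, and used edgeR. The sources used here give no versions. The deposited log2 CPM is the abundance that the authors averaged over all libraries, and another column deposited by the authors holds the counted coding length in bases. The columns of fold change, p-value and adjusted p-value hold the authors' comparison of the diets and were not used. Genes without a line were not analysed here.

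CPM was taken as 2 to the power of log2 CPM, and density as CPM per kilobase of listed length. No pseudocount or further filter was added. The listed length was 60 bases, 6 more than that, under a coding sequence in GENCODE M1 (mm9) for 7093 of 7260 genes matched by symbol and for all 59 genes described (57 matched by symbol, 2 by synonym). Windows of 30 bases were searched, on the coding strand, in the coding sequences of 22594 genes. The search was tested on simulated data against a direct count. Python 3.11.15, pandas 2.3.3, numpy 2.4.6 and matplotlib 3.10.9 were used. Groups came from the sample titles, and no test was made because values are pooled. Genes named were the 3 highest and 3 lowest subunits of each complex by density, the catalytic and core subunits, isoform families and all assembly factors with a line, and extremes of the other lists; others are named beside them after their values were seen. A gene that this rule names is not reported here by itself and is left out of the plot by gene, but it enters the counts, medians and sums. The members and lists were chosen with earlier results of these data known. Alternatives were a pseudocount of 1 CPM, a filter at log2 CPM of 3, leaving out genes with over 10% of windows shared, the full coding length, and shares without the 10 most abundant genes.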

Additional observations from a re-analysis of the deposited data

How the results depend on the processing

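The order of the complexes by median subunit density, from I lowest to V highest, was the same under each alternative run. Medians for complexes I, II, III, IV and V were 206, 299, 542, 618 and 761 CPM per kilobase with a pseudocount of 1 CPM and 183, 262, 376, 509 and 603 on the full coding length. With log2 CPM of at least 3 the complex IV median was 689. Without genes that share over 10% of windows it was 738, both for exact windows and for windows with up to 2 mismatches, and with the latter complex V was 810. The ratio of subunits to assembly factors was 11.1 with the pseudocount, 10.2 with the filter and 11.3 on the full length. Without the 10 most abundant genes of the table the shares of complexes I to V were 0.42%, 0.171%, 0.196%, 0.235% and 0.359%. With Cyc1 added, complex III had a median of 525 and a share of 0.158%. The full length, the windows with mismatches and Cyc1 were chosen after seeing the data. Taking the left-out codons off the length was not run, as the listed length already lacks them. The catalytic head against single-copy subunits and Ndufa4 within complex IV were not run, since those genes had no line. Leaving out a library was not possible with pooled values. No paired analysis was possible because the result comes from no test. With no spread between mice, the size of a difference that these data could show is unknown.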
